A study of Rattus norvegicus with 6 samples.

Results

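Gdap1 and the genes that fuse, split and move mitochondria were examined in primary rat hippocampal neurons in which the nuclear receptor coactivator Ncoa3 had been silenced. The set held 9 genes, Gdap1, Mfn1, Mfn2, Opa1, Dnm1l, Fis1, Mff, Rhot1 and Rhot2, and was chosen by the log2 difference of Gdap1, which was lower after Ncoa3 silencing. Each gene was read from the brightest probe set that the platform annotation assigns to it alone, which gave values for 7 of the 9 genes among 18166 genes in all. Mfn1 had no such probe set, and the 4 probe sets of Rhot1 also carry the name of a second gene, so both are without values here. The neurons came from rat embryos at day 18, were cultured with 10 µM of the antimitotic nucleoside FUDR, and received adeno-associated virus at 4 days in vitro, at 1800000 infectious units per ml. The virus carried an Ncoa3 shRNA in 3 samples and a control shRNA in 3 samples, and total RNA was taken at 14 days in vitro and hybridised to 6 Affymetrix arrays. Each of 3 numbered experiments gave 1 Ncoa3 shRNA array and 1 control shRNA array. The sources used here name neither the target sequence of the hairpin nor the promoter that drove it, and a single Ncoa3 hairpin label was used throughout.

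Mitochondria in neurons continually fuse and divide, and are carried along axons and dendrites on microtubules. Mitofusins (Mfn1 and Mfn2) join the outer membranes and Opa1 the inner membranes, while the dynamin-related GTPase Drp1, encoded by Dnm1l, is recruited by outer membrane receptors such as Mff and Fis1 and constricts the organelle until it splits. The Miro GTPases Rhot1 and Rhot2 link mitochondria to motors through Trak adaptors. Gdap1 encodes an outer membrane protein related to glutathione S-transferases that promotes fission, and mutations in GDAP1, like those in MFN2, cause forms of the human peripheral neuropathy Charcot-Marie-Tooth disease.

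Promoters of the 3 genes other than Gdap1 whose normalized signal was lower with Ncoa3 shRNA in all 3 experiments, as it was for 33.5% of all genes, are shown first, because Ncoa3 acts at promoters and enhancers through the receptors that recruit it. The RefSeq table of rat promoters (GRCr8) matched 7 of the 9 genes, and Gdap1 and Mfn2 were not matched. The 250 bases before the start are given for Opa1 (chr11:84689901-84690150, minus strand), Dnm1l (chr11:98085147-98085396, plus strand) and Mff (chr9:91455681-91455930, plus strand), 5′ to 3′ along the gene. Capitals mark matches, on either strand, to AGGTCA (a nuclear receptor half-site), the core site of the factor NRF1 (which many promoters of mitochondrial genes contain) and GGGCGG (a GC box).

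Opa1: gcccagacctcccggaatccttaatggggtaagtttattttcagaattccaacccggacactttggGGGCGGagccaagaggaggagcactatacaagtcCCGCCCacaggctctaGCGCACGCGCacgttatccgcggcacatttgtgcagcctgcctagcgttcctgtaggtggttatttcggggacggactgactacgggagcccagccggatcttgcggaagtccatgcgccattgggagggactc
Dnm1l: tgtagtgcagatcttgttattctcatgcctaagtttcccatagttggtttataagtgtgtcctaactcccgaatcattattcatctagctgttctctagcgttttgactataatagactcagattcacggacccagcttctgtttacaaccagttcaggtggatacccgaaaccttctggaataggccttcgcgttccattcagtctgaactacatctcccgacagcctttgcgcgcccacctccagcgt
Mff: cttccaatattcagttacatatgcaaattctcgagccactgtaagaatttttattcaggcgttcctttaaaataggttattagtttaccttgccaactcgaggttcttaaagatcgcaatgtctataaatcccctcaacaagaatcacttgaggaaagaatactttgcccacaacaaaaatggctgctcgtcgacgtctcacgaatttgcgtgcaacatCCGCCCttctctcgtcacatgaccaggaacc

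Opa1 held 1 NRF1 core site, which began 134 bases before the start, and 2 GC boxes, which began 184 and 150 bases before it. Mff held 1 GC box, beginning 31 bases before the start, and Dnm1l held no match to the 3 motifs. AGGTCA was in 0 of the 8 promoters of these genes (Fis1 has more than one), against 4707 of all 33469 promoters (14.1%). The NRF1 core site was in 3.75% and GGGCGG in 30.5% of all promoters, and no match overlapped another in the 3 sequences shown. Of the 8 promoters only that of Opa1 held the NRF1 core site. GGGCGG was in those of Opa1, Mff, Mfn1 and Rhot1 and in each of Fis1, but not in those of Dnm1l and Rhot2. These matches describe the letters of these windows only.

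The arrays of the 2 groups were not on a common scale as deposited. The mean of the array medians over genes was 7.75 ± 0.0353 (SD, n = 3) with Ncoa3 shRNA and 8.03 ± 0.0564 (SD, n = 3) with control shRNA, a log2 difference of -0.28 (p = 0.1 by exact permutation, two-sided, which is the lowest p possible for 3 arrays a group). Arrays of one group shared the identical value at 8680 to 13979 of 36685 probe sets, against 0 to 2 between arrays of different groups, so the processing run and the group cannot be told apart, and p-values leave out any error between runs. Signals are therefore given below after quantile normalization of all 6 arrays, which removes the shift, unless called deposited. With limma, the adjusted p was under 0.05 for 3548 of the 18166 genes, or 19.5% (10.5% higher and 9.04% lower with Ncoa3 shRNA). A single deposited value on all 3 Ncoa3 shRNA arrays was found for 22.44% of genes, and on all 3 control arrays for 22.51%. For such genes the spread within that group came from the normalization alone, and the tests used this spread. With the experiment as a block 7147 (39.3%) passed. In a fit of only the 9083 genes at or above the median signal 433 passed, a smaller share than over all genes. The count of 3548 depended on the experiments: without experiment 2 it was 0 (3071 at an unadjusted p under 0.05), without experiment 1 it was 223, and without experiment 3 it was 8354 (46%).

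Ncoa3 itself had log2 signals of 7.60, 7.60 and 7.45 with Ncoa3 shRNA in experiments 1, 2 and 3, and of 8.63, 8.72 and 8.22 with control shRNA. All 3 Ncoa3 shRNA arrays lay below all control arrays. In the deposited values Ncoa3 shRNA replicates 1 and 2 had the same value, so their spread came from the normalization alone. The difference was -0.97 ± 0.142 (SE; 3 arrays a group), with an adjusted p of 0.00747 in limma's test, and by experiment it was -1.03, -1.12 and -0.77. The call was lost without experiment 1 (adjusted p = 0.134) or experiment 2 (0.123).

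Gdap1 (probe set 17805232) was the lowest of the 7 genes relative to its control level, and its values are a description because they chose the set. Its log2 signal was 9.49, 9.12 and 9.81 with Ncoa3 shRNA in experiments 1, 2 and 3, and 10.30, 10.27 and 10.36 with control shRNA. The groups did not overlap, and in 19% of all genes every Ncoa3 shRNA array likewise lay below every control array. The Ncoa3 shRNA arrays were spread more widely than the control arrays, with SDs of 0.348 and 0.0461 (n = 3 each). In the deposited values the SDs were 0.325 with Ncoa3 shRNA and 0.0223 with control shRNA, and no 2 arrays shared a value. The mean difference was -0.84 on the log2 scale, or 1.78-fold lower with Ncoa3 shRNA, and 41 of the 18166 genes had a difference at least as far below 0. By experiment the difference was -0.80, -1.15 and -0.55. In the deposited values, where the median gene stood at -0.25, the mean difference was -1.09. Over the 9 fits that left out 1 array or 1 experiment it ran from -1.002 to -0.65.

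**Figure D1:**
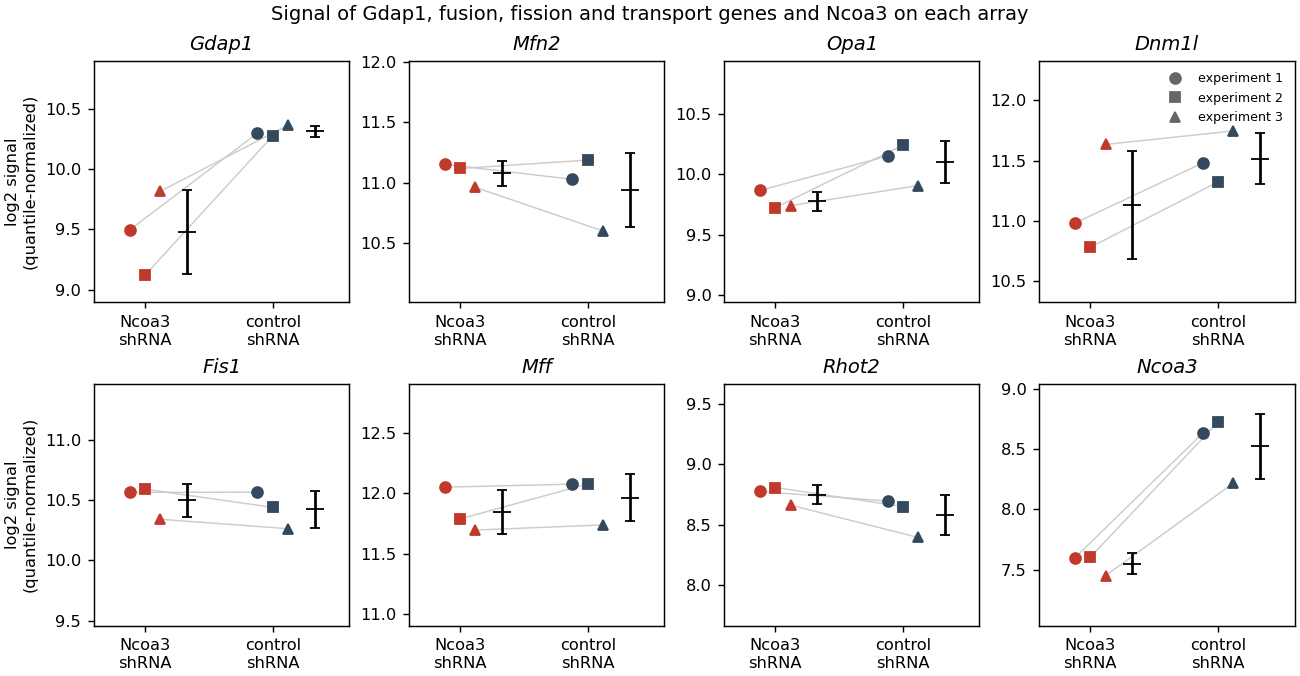
Log2 signal after quantile normalization (vertical axes, each 2 log2 units tall) of the 7 measured genes and of Ncoa3 on 3 Ncoa3 shRNA arrays (red, left) and 3 control shRNA arrays (blue, right). Marker shapes give the experiment, grey lines join the arrays of an experiment, and black bars give the mean ± SD of each group. Gdap1 lay at 9.12 to 9.81 with Ncoa3 shRNA and at 10.27 to 10.36 with control shRNA, while Fis1, Mff, Mfn2, Dnm1l and Rhot2 overlapped between the groups.

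None of the 6 other measured genes passed limma's test (0 of 6, where 19.5% of all genes passed), and 1 of the 6 was under 0.05 by unadjusted p. All 6 lay at or above the median gene's signal. In a fit of only the 9083 such genes 433 passed, a smaller share, and 0 of the 6 did. Their median difference was -0.022, against 0.0084 over all genes, and 3 of the 6 differences were below 0. With the experiment as a block the count was again 0 of 6. As deposited, 1 of the 6, Opa1, passed as lower, where 43.3% of all genes did so.

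Of the fusion genes, Opa1, the inner membrane fusion GTPase (probe set 17669940), came nearest to the threshold. Its log2 signal was 9.87, 9.72 and 9.74 with Ncoa3 shRNA and 10.15, 10.24 and 9.91 with control shRNA, in experiments 1 to 3. The groups did not overlap, although the highest Ncoa3 shRNA array lay close beneath control shRNA replicate 3. The difference was -0.32 ± 0.103 (SE, n = 3 per group), with a 95% interval of -0.57 to -0.073 and limma's adjusted p = 0.0790 (0.0543 with the experiment as a block). Opa1 passed in the deposited values (difference -0.57, adjusted p = 0.0298), without control shRNA replicate 3 (0.0235, where 10.5% of all genes passed as lower) and without experiment 3 (0.0262). Its adjusted p was above 0.05 in 12 of the 16 alternatives, and up to 0.480.

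Mfn2, the outer membrane mitofusin (probe set 17812500), had log2 signals of 11.15, 11.12 and 10.96 with Ncoa3 shRNA, against 11.03, 11.19 and 10.60 with control shRNA. The groups overlapped, and the array of experiment 3 was the lowest of its group in both. The difference was 0.14 ± 0.155 (SE; limma's adjusted p = 0.587), with a 95% interval of -0.24 to 0.52, and in the deposited values it was -0.054, so its direction turned with the scaling. It did not pass in any of the 16 alternatives.

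Of the fission genes, Dnm1l, which encodes the dividing GTPase Drp1 (probe set 17670921), had the lowest mean difference after Gdap1. Its log2 signal was 10.98, 10.78 and 11.63 with Ncoa3 shRNA and 11.48, 11.32 and 11.75 with control shRNA. The groups overlapped through Ncoa3 shRNA replicate 3, which lay above control shRNA replicates 1 and 2. The difference was -0.38 ± 0.233 (SE; limma's adjusted p = 0.310, and 0.0613 with the block), with a 95% interval of -0.95 to 0.18. By experiment it was -0.50, -0.54 and -0.11. Without Ncoa3 shRNA replicate 3 the difference was -0.63 (adjusted p = 0.0396), and without experiment 3 it was -0.51 (0.0297). Of all genes, 9.06% and 21.6% passed as lower in those 2 fits.

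Fis1 and Mff encode outer membrane proteins that act as receptors for Drp1. Fis1 (probe set 17672731) had log2 signals of 10.56, 10.59 and 10.34 with Ncoa3 shRNA and 10.56, 10.44 and 10.26 with control shRNA. Mff (probe set 17860881) had 12.05, 11.79 and 11.70 with Ncoa3 shRNA and 12.08, 12.08 and 11.74 with control shRNA. The groups overlapped for both genes, and the largest gap within an experiment was that of Mff in experiment 2. The difference was 0.076 ± 0.107 for Fis1 (SE; limma's adjusted p = 0.674; 95% interval -0.18 to 0.34) and -0.12 ± 0.130 for Mff (SE; adjusted p = 0.577; 95% interval -0.43 to 0.20). In the deposited values these differences were -0.14 for Fis1 and -0.25 for Mff, and with arrays centred on their medians Mff stood at 0.028.

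Rhot2, the Miro GTPase that tethers mitochondria to motor adaptors (probe set 17654902), had log2 signals of 8.78, 8.81 and 8.66 with Ncoa3 shRNA and 8.70, 8.65 and 8.40 with control shRNA. Within each experiment the Ncoa3 shRNA array was the higher one, but the groups overlapped. The difference was 0.17 ± 0.101 (SE; limma's adjusted p = 0.302, and 0.0731 with the block), with a 95% interval of -0.077 to 0.41, and it was -0.11 in the deposited values, where Ncoa3 shRNA replicates 1 and 2 had the same value.

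**Figure D2:**
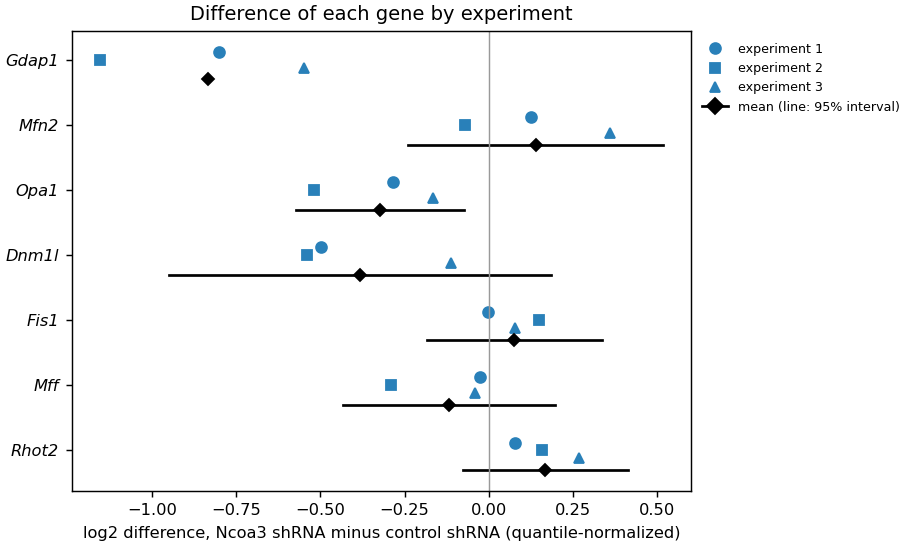
Log2 difference, Ncoa3 shRNA minus control shRNA, after quantile normalization (horizontal axis) for each of the 7 measured genes (rows). Blue markers give the 3 experiments, black diamonds the mean, and black lines the 95% interval of the mean for the 6 genes that were tested. Gdap1 lay furthest left in every experiment (-0.80, -1.15 and -0.55), and of the 6 intervals that of Opa1 alone, -0.57 to -0.073, left out 0.

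The experiments ranked alike for several of these genes. The difference was lowest in experiment 2, next in experiment 1 and highest in experiment 3 for Gdap1, Opa1, Dnm1l and Mfn2, and also for Ncoa3. The same order was found in 4354 of all genes (24.0%), and in 29.6% of the 6091 genes that were lower in all 3 experiments. Mff, Fis1 and Rhot2 followed other orders. Dnm1l and Gdap1 were higher in experiment 3 than on average in experiments 1 and 2 in both groups, by 0.75 with Ncoa3 shRNA and 0.34 with control shRNA for Dnm1l, and by 0.51 with Ncoa3 shRNA and 0.078 with control shRNA for Gdap1, as were 22.6% of all genes. The other 5 genes were lower in experiment 3 in both groups, as were 56.6% of all genes.

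Likeness between genes was measured as the root mean square distance of their 6 normalized values after each gene's own mean was subtracted, over the 9083 genes at or above the median signal. The 5 genes nearest to Gdap1 were Agps, an enzyme of ether lipid synthesis, at a distance of 0.0993, Fem1c, a substrate receptor of a ubiquitin ligase, at 0.101, the calpain inhibitor gene Cast at 0.105, Secisbp2l at 0.106 and the ribosomal S6 kinase gene Rps6ka6 at 0.111. Their mean differences ran from -0.82 for Secisbp2l to -0.64 for Agps, and all 5 were lower in each experiment, with the lowest difference in experiment 2. Of the other 6 measured genes, Dnm1l was nearest to Gdap1 at 0.264, with 165 genes nearer, followed by Opa1 at 0.348, with 664 genes nearer. Mfn2 was the farthest at 0.583, with 7208 genes nearer.

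**Figure D3:**
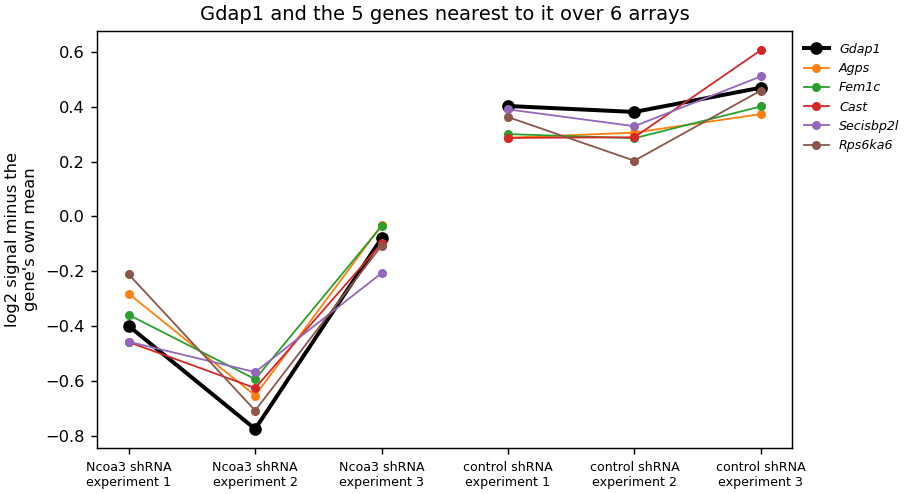
Log2 signal minus the gene's own mean over 6 arrays (vertical axis) for Gdap1 (black) and the 5 genes nearest to it (colours) on the 3 Ncoa3 shRNA arrays (left) and the 3 control shRNA arrays (right), after quantile normalization. All 6 genes were lowest on the Ncoa3 shRNA array of experiment 2, and the genes were chosen for this likeness.

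The genes nearest to Opa1 were the splicing factor gene Hnrnph1 at 0.0234, the kinase gene Tbk1 at 0.0345 and the chromatin gene Morf4l2 at 0.0353. Nearest to Mfn2 were Pdss2, which acts in coenzyme Q synthesis, at 0.0140, the ribosome biogenesis gene Rrp36 at 0.0339 and the Mediator subunit gene Med17 at 0.0344. Among the 7 measured genes the closest pair was Rhot2 and Fis1, at 0.0641, but 207 genes were nearer to Rhot2 and 309 nearer to Fis1. These distances come from the same 6 arrays for every gene and describe them only.

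Other regulators of mitochondrial fusion, fission and inner membrane shape passed at a share of 6.90%. Of 29 measured genes 2 rose and 0 fell (unadjusted, 5 and 1), against 19.5% of all genes, and their median difference was 0.010. Miga2, an outer membrane protein that promotes fusion, rose by 0.31 (limma's adjusted p = 0.0304), and Chchd6, a subunit of the complex that shapes cristae, rose by 0.21 (0.0308). As deposited, both were almost level, at 0.035 for Miga2 and 0.00033 for Chchd6, and neither passed. Replicates 1 and 2 of each group shared a deposited value for Chchd6. Each call was lost in 7 of the 9 fits that left out 1 array or experiment (adjusted p up to 0.361 for Miga2 and 0.367 for Chchd6). With the block, where 39.3% of all genes passed, 4 rose and 2 fell. As deposited 6 passed as lower, where 43.3% of all genes did so, and 0 as higher.

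The closest relative of Gdap1 on the arrays did not pass limma's threshold after normalization. Gdap1l1, its paralogue, had a deposited log2 signal of 12.61 ± 0.0310 with Ncoa3 shRNA and 12.63 ± 0.0244 with control shRNA (SD, n = 3 each). After normalization its difference was 0.087 ± 0.0315 (SE; limma's adjusted p = 0.110). Its 95% interval of 0.010 to 0.16, which is not adjusted for the number of genes, left out 0. Gdap2, which shares part of its name with Gdap1, stood at 0.085 (adjusted p = 0.518). Mief1, an outer membrane receptor for Drp1, stood at 0.15 (0.287) and Oma1, the protease that cleaves Opa1, at -0.13 (0.286, and 0.0178 with the block). All 4 differences were below 0 as deposited, and Oma1 then had 1 value throughout each group, so that the normalization alone gave it a spread.

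Among the motors and adaptors that carry mitochondria, 2 of 21 measured genes rose and 2 fell, close to the 19.5% of all genes, with a median of -0.071. In the fit of only the 9083 genes at or above the median signal 433 passed. Of this list 1 then passed as higher and 0 as lower. Dctn1, the large subunit of the dynein activator dynactin, rose by 0.50 (limma's adjusted p = 0.00248), Mgarp rose by 0.31 (0.0420), Trak2, an adaptor between Miro and the motors, fell by 0.29 (0.0220), and the kinesin light chain gene Klc1 fell by 0.15 (0.0406). For Dctn1, Ncoa3 shRNA replicates 2 and 3 shared a deposited value, and so did control shRNA replicates 1 and 2. Dctn1 no longer passed without experiment 1 or 2 (highest adjusted p 0.0938), and Mgarp, Trak2 and Klc1 no longer passed in 8, 6 and 7 of the 9 leave-out fits. Trak1, the other adaptor of this pair, stood at -0.071 (0.794). Klc1 and Kif5b were chosen after their values were seen. Kif5b, a kinesin heavy chain gene, had log2 signals of 9.86, 9.18 and 10.75 with Ncoa3 shRNA and 10.81, 10.43 and 11.08 with control shRNA. Its groups overlapped through experiment 3, where both arrays were highest, and its difference of -0.84 did not pass (0.198, and 0.0471 with the block). Of the 9 leave-out fits it passed only in that without Ncoa3 shRNA replicate 3, where 9.06% of all genes passed as lower. With the block, where 39.3% of all genes passed, 2 genes of the list rose and 4 fell. As deposited 6 passed as lower, where 43.3% of all genes did so, and 1 as higher.

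**Figure D4:**
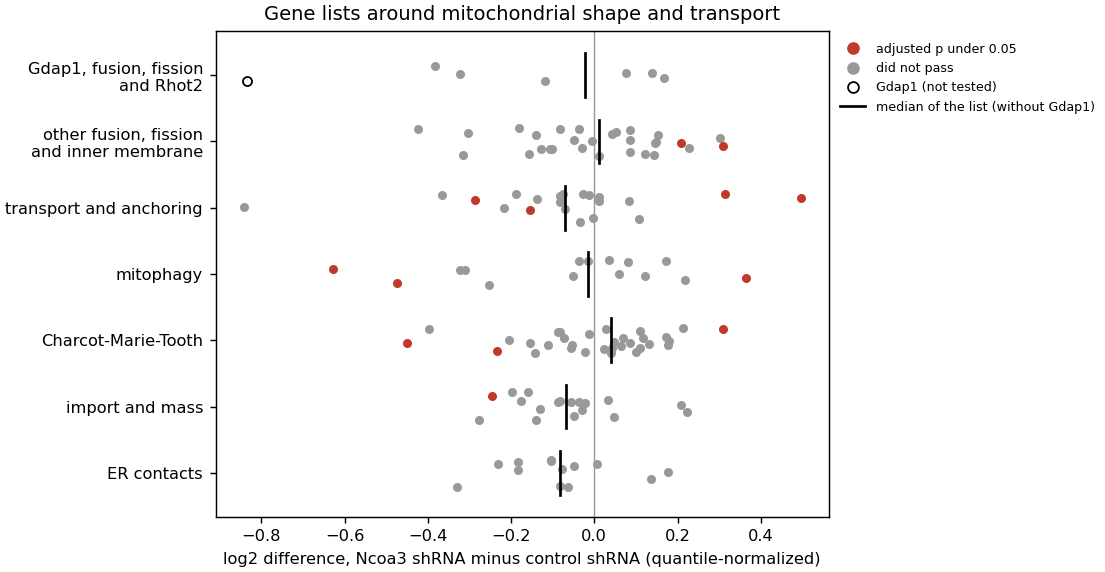
Log2 difference, Ncoa3 shRNA minus control shRNA, after quantile normalization (horizontal axis) of each measured gene in 7 lists (rows, 1 point per gene, with vertical scatter for legibility). Red points passed limma's test, grey points did not, the open circle is Gdap1, which was not tested, and black bars are list medians without Gdap1. The medians lay between -0.082 and 0.040.

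Of 15 measured genes of mitophagy, the autophagic removal of damaged mitochondria, 1 rose and 2 fell, close to the 19.5% of all genes that passed in either direction, with a median of -0.014. In the fit of only the 9083 genes at or above the median signal, where 433 passed, 0 mitophagy genes passed as higher and 1 as lower. The outer membrane mitophagy receptor genes Bnip3l and Fundc1 fell, Bnip3l by 0.63 (limma's adjusted p = 0.00237) and Fundc1 by 0.47 (0.0464). The autophagy receptor gene Sqstm1 rose by 0.36 (0.0230). Bnip3l had a single deposited value on all 3 control arrays, and Ncoa3 shRNA replicates 1 and 3 shared another. It no longer passed without experiment 1 or 2 (highest adjusted p 0.106), while Fundc1 and Sqstm1 no longer passed in 7 and 6 of the 9 leave-out fits. Pink1, the kinase that marks damaged mitochondria, stood at 0.22 (0.0550), and at -0.019 in the deposited values. With the block, where 39.3% of all genes passed, 1 rose and 4 fell. As deposited 6 passed as lower, where 43.3% of all genes did so, and 0 as higher.

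Of 33 measured genes of Charcot-Marie-Tooth disease outside the set, 1 rose and 2 fell, with a median of 0.040, beside 19.5% of the whole table in either direction. The helicase gene Ighmbp2 fell by 0.45 (limma's adjusted p = 0.0371), the connexin gene Gjb1 fell by 0.23 (0.0346) and Litaf, an endosomal protein gene, rose by 0.31 (0.0457). These calls were lost in 7, 8 and 7 of the 9 leave-out fits. With the block, where 39.3% of all genes passed, 2 rose and 3 fell. As deposited, where 43.3% of all genes passed as lower, 11 did so and 0 passed as higher.

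Genes that report on protein import and mitochondrial mass gave 0 rises and 1 fall among 18 measured (unadjusted, 1 and 1), with a median of -0.069, beside 19.5% of the whole table in either direction. Tomm70, an import receptor of the outer membrane, fell by 0.25 (limma's adjusted p = 0.0364), a call lost in 7 of the 9 leave-out fits. Of 13 genes of contacts between the endoplasmic reticulum and mitochondria 0 rose and 0 fell (unadjusted, 1 and 3), with a median of -0.082. With the block, against 39.3% of all genes, 0 import genes rose and 3 fell, and 2 contact genes rose and 2 fell. As deposited, against 43.3% of all genes passing as lower, 5 import genes and 6 contact genes passed as lower and 0 of either list as higher. Without experiment 2 no gene of any of these lists passed, as no gene of the whole table did. In the fit of only the 9083 genes at or above the median signal 433 passed. No import, contact or Charcot-Marie-Tooth gene was among them, and none of the other regulators of fusion, fission and inner membrane shape.

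Fewer cells of a type and less RNA per cell cannot be told apart in such bulk samples. The marker counts stand beside 10.5% of all genes that rose and 9.04% that fell. Of 11 measured neuron markers 0 rose and 1 fell (unadjusted, 0 and 2), and their mean log2 signal was 12.30 to 12.37 with Ncoa3 shRNA and 12.38 to 12.43 with control shRNA. The neuron marker that fell was Gad2, at -0.42 (limma's adjusted p = 0.0349). Of 8 microglia markers 2 rose, Cx3cr1 by 0.99 (0.0205) and Aif1 by 0.43 (0.0113), and the mean signal of the 8 was 6.41 to 6.61 with Ncoa3 shRNA and 6.26 to 6.33 with control shRNA. Cx3cr1 and Aif1 both lay below the median gene's signal. Aif1 had a single deposited value on all 3 control arrays, Ncoa3 shRNA replicates 1 and 3 shared another, and its deposited difference was 0.15. Of 9 oligodendrocyte lineage markers 2 rose and 2 fell, with mean signals of 7.69 to 7.76 with Ncoa3 shRNA and 7.63 to 7.69 with control shRNA. Mobp stood at 0.51, Pdgfra at 0.32, Sox10 at -0.47 and Mog, chosen after its values were seen, at -0.26. Of 7 endothelial, fibroblast and mural markers 1 rose, Dcn by 0.52 (0.0385), with mean signals of 7.73 to 7.91 with Ncoa3 shRNA and 7.57 to 7.75 with control shRNA. Of 7 astrocyte markers 0 passed in either direction (unadjusted, 0 and 0), with 9.26 to 9.79 with Ncoa3 shRNA and 9.38 to 9.79 with control shRNA. Of the 9 leave-out fits 7 lost the call of Gad2, 4 that of Cx3cr1, 3 that of Aif1, 8 that of Dcn, 6 that of Pdgfra and Mog each, and 2 that of Mobp and Sox10 each. As deposited, 3.97% of all genes passed as higher and 43.3% as lower. Of the markers, 0 neuron markers then passed as higher and 5 as lower, 1 microglia marker passed as higher and 2 as lower, and 2 oligodendrocyte lineage markers passed as higher and 4 as lower. Of the endothelial, fibroblast and mural markers 0 then passed as higher and 3 as lower, and of the astrocyte markers 0 and 1. Cx3cr1 and Dcn were not among those passing as deposited (limma's adjusted p = 0.109 and 0.0948). With arrays centred on their medians 3900 of the 18166 genes passed in either direction. In that fit 3 neuron markers passed as higher and 0 as lower, and 1 microglia marker as higher and 0 as lower. In the fit of only the 9083 genes at or above the median signal, where 433 passed, no marker of any cell type passed. Markers below the median signal, among them Cx3cr1 and Aif1, were not tested in that fit. The part of these cell types in the differences of Gdap1 and the other genes was not tested.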

How the data were processed

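The 6 samples, labelled as separate experiments within each group, were hybridised to single-colour Affymetrix arrays. The authors deposited 1 log2 signal for each probe set on each array, made with Affymetrix Expression Console according to the submitters' processing notes. The sources used here do not name the version, summarisation, normalization or build. Of 36685 probe sets, 18511 had 1 gene symbol in the platform annotation, which can be old, 575 had several and 17599 had none. The brightest probe set was taken for 291 genes with several, which gave 18166 genes.

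All probe sets were quantile normalized. Genes were tested two-sided with limma 3.58.1 under R 4.3.3 (eBayes with a mean-signal trend), and p-values were adjusted by Benjamini and Hochberg's method over the whole gene table, with 0.05 as the threshold. The experiment number pairs the arrays, as the sample titles of the 2 groups carry the same numbers. Deviations from group means correlated within experiments at r = 0.75, 0.56 and 0.80 over genes. Across experiments r was 0.54 for Ncoa3 shRNA array 1 with control array 2, and 0.33 for Ncoa3 shRNA array 2 with control array 1. Control array 2 thus correlated almost equally with Ncoa3 shRNA arrays 1 and 2. Every cross pair with an array of experiment 3 had a negative r. Deviations from a group mean sum to 0 over the 3 arrays of the group. The negative r and the 0.80 of experiment 3 thus follow from the positive r among experiments 1 and 2. They are no separate evidence for the pairing. Alternatives were deposited values, median-centred arrays, the experiment as a block, each array or experiment left out, dim genes left out, the mean of probe sets, no trend, and a fold minimum of 1.5. The fit was tested on simulated data.

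The genes and lists were chosen with earlier results of these data known. Named are all genes of the set, up to 3 genes per list past the threshold with the largest differences, a fixed few regulators, and the genes nearest in profile. Some genes occur in several lists. The number of arrays limits the precision.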

Additional observations from a re-analysis of the deposited data

How the results depend on the processing

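The number of genes past limma's threshold was 3548. It was 8579 with the deposited values (722 higher, 7857 lower). With the experiment as a replicate block it was 7147, and 10932 with the deposited values and the block. With only the 9083 genes at or above the median signal tested it was 433, a smaller share than over all genes. Leaving out 1 array gave 1426 to 3867, and leaving out experiment 1, 2 or 3 gave 223, 0 or 8354. The number of the 6 other measured genes of the set past the threshold was 0, and Gdap1 was not tested. It was 1 with the deposited values, with or without the block, 0 to 1 without 1 array and 0 to 2 without 1 experiment, and the replicate block left it at 0 with the normalized values. The differences of Mfn2, Fis1 and Rhot2, which were above 0, were -0.054, -0.14 and -0.11 with the deposited values, with or without the block, and that of Mff was 0.028 with median-centred arrays. Without 1 array Mfn2 ran from -0.030 to 0.26 and Fis1 from -0.0043 to 0.15, both lowest without control shRNA replicate 3. Opa1, Dnm1l and Gdap1 stayed below 0 in all 16 alternatives. The cause of these shifts was not tested. The background signal of each probe set is not known, which limits what can be said of dim genes.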
